A study of Mus musculus with 4 samples.

Results

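Rgs16 and 9 other genes of the regulators of G-protein signalling (RGS) family are described here: Rgs1, Rgs2, Rgs3, Rgs4, Rgs5, Rgs10, Rgs12, Rgs14 and Rgs19. They were taken by gene symbol from probe sets that the platform annotation assigns to a single gene, which gave 12 probe sets for the 10 genes, out of 22180 named genes on the array. The set was chosen by the measured fructose and genotype differences of Rgs16, so those differences are given as a description. Expression had been measured in primary hepatocytes, liver parenchymal cells cultured after isolation, from male mice aged 2 months. The 4 groups were Chrebp-KO cells with 25 mM fructose (KO fructose), Chrebp-KO cells without it (KO control), wild-type cells with 25 mM fructose (WT fructose) and wild-type cells without it (WT control). Culture was in serum-free medium for 16 h throughout, and each group was measured on 1 array from 400 ng of total RNA. The strain, the number of mice, the glucose in the medium and whether the deletion is restricted to hepatocytes are not stated in the labels. The extraction label speaks of liver RNA although the cell type label gives hepatocytes. The design asks how loss of ChREBP, the sugar-responsive transcription factor encoded by Mlxipl, alters the response to fructose.

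RGS proteins end signalling by G-protein-coupled receptors. A receptor loads a G-protein alpha subunit with GTP, and the RGS domain speeds the hydrolysis of that GTP, so the alpha subunit returns to its inactive state sooner. Rgs16 acts on alpha subunits of the Gi and Gq classes. In mouse hepatocytes it is known as a gene induced by glucose, and its protein is known to restrain G-protein-stimulated fatty acid oxidation.

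Values are log2 expression after robust multi-array averaging (RMA), so a difference of 1 is a 2-fold difference. The background level was 4.76 (log2), the 95th percentile of the mean levels of 1105 olfactory receptor genes, a family that hepatocytes are not known to use. Detected genes are those above this level on 1 or more arrays of the comparison. No group has a replicate array, so no difference below has a test, an SD or a p-value, and genes are counted by size at 2-fold. Between 10368 and 10447 genes lay above background on each array. Mlxipl itself was at 7.37 on KO fructose, 7.42 on KO control, 8.43 on WT fructose and 8.08 on WT control, so its probe set still gave signal in KO cells. The labels do not name the deleted part of the gene, and this probe set may lie outside it. Of 18 hepatocyte markers with a value, 17 lay above background on every array. The exception was Ass1, at 4.36 on KO fructose, 3.96 on KO control, 4.06 on WT fructose and 3.85 on WT control, below background throughout. Alb was at 12.66, 12.63, 12.58 and 12.63 on KO fructose, KO control, WT fructose and WT control. Not all markers were that even. For fructose minus control their median was 0.08 in KO and 0.01 in WT, and 2 of 17 passed 2-fold in each genotype. These were Cps1 (1.40 in KO and 1.41 in WT) and Hpd (1.14 and 1.24). Hnf4a was lower on fructose (-0.50 in KO and -0.75 in WT). Of all detected genes, 2.86% passed 2-fold in KO and 6.11% in WT.

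Rgs16 was the RGS gene with a large fructose difference, and that difference was much smaller in cells without ChREBP. Its level was 6.62 on KO fructose, 5.77 on KO control, 9.97 on WT fructose and 6.82 on WT control. WT fructose stood far above the other arrays, and KO control was the lowest. The KO fructose level lay below the WT control level, by a log2 difference of -0.20, so KO cells given fructose did not reach the level that WT cells had without it. All 4 levels exceeded the background of 4.76, and KO control lay just above a stricter level of 5.77 set at the 99th percentile of the olfactory receptor genes. With no replicate arrays it is not known which neighbouring levels in this order differ beyond their spread.

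In WT cells Rgs16 was 8.84-fold higher on fructose than on control, a log2 difference of 3.14, which ranked 14th among 10814 detected genes from the highest. Of 2 detected RGS genes, 1, Rgs16, passed 2-fold, where 6.11% of all detected genes did in either direction. In KO cells Rgs16 was 1.80-fold higher on fructose than on control, a log2 difference of 0.85 that ranked 261st among 10752. It fell short of 2-fold there, so 0 of 3 detected RGS genes passed, where 2.86% of all detected genes did. The 2 fructose effects differed by -2.29 on the log2 scale (KO minus WT), 4.90-fold, and ranked 7th from the lowest among 11050 genes. In this difference of effects 1 of 3 detected RGS genes passed 2-fold, where 1.03% of all detected genes did. A gene counts as detected here by the average of its probe sets, and Rgs5, of which 1 probe set was above background on every array, would add 1 detected gene and none past 2-fold to each comparison.

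Between genotypes, Rgs16 was lower in KO cells in both media. In control medium it was 2.07-fold lower in KO than in WT, a log2 difference of -1.05 and just past 2-fold. Only 25 of 10720 detected genes, 0.233%, passed 2-fold in that comparison, and Rgs16 ranked 17th from the lowest. It was 1 of 3 detected RGS genes. In fructose medium Rgs16 was 10.2-fold lower in KO than in WT, a log2 difference of -3.34 that ranked 4th from the lowest among 10688 genes. There 1 of 2 detected RGS genes passed 2-fold, where 1.28% of all detected genes did. These comparisons share arrays and are not independent of each other: a single high or low array would enter each comparison that uses it.

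**Figure D1:**
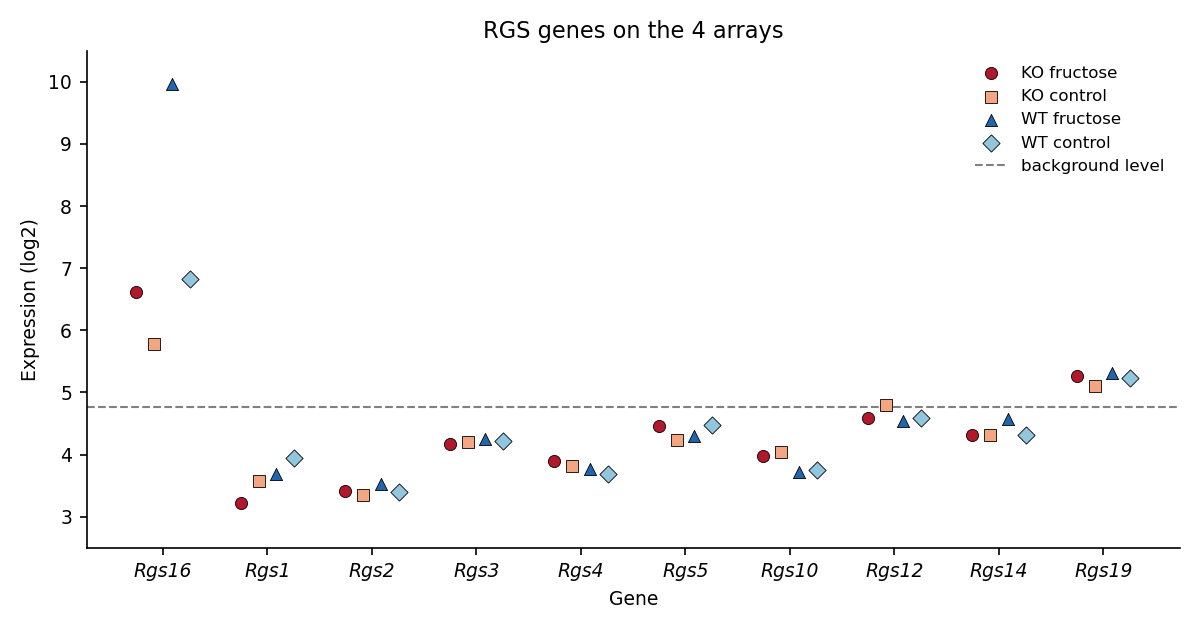
Log2 expression (y axis) of the 10 RGS genes (x axis), with 1 point per array for KO fructose, KO control, WT fructose and WT control and the background level of 4.76 as a dashed line. Rgs16 reached 9.97 on WT fructose and lay between 5.77 and 6.82 on the other arrays, while Rgs1, Rgs2, Rgs3, Rgs4, Rgs10 and Rgs14 lay below background throughout. Rgs5 is drawn as the average of its 2 probe sets, which is below background although 1 of them was above it on every array (5.15 to 5.58). Levels of different genes come from different probes and are not to be compared with each other.

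Markers of non-parenchymal liver cells also differed between the genotypes, and Rgs16 and other RGS genes are known from immune cells. In a bulk sample fewer cells of a type and less RNA per cell cannot be told apart. Of 12 detected macrophage markers, 11 lay lower in KO than in WT in control medium, with a median log2 difference of -0.32 and Fcgr1, an Fc receptor of macrophages, at -1.25. In fructose medium 10 of 13 lay lower, with a median of -0.45, Fcgr1 at -1.04 and Timd4, a Kupffer cell receptor, at -1.01. The 3 that lay higher were Cd68 at 0.44, Lyz2 at 0.29 and Cd14 at 0.04. The log2 summed macrophage marker level was 12.37 on KO fructose, 12.11 on KO control, 12.26 on WT fructose and 12.27 on WT control. In fructose medium this sum was thus higher in KO than in WT, unlike the median. Its largest values were those of Cd68 and Cd14, at 11.22 and 11.20 on KO fructose. C1qc, Vsig4 and Cd163 were below background on all arrays. Endothelial markers were lower in KO control for 11 of 11 (median -0.41) and lower in KO fructose for 8 of 11 (median -0.27). Their summed level was 9.69 on KO fructose, 9.73 on KO control, 10.01 on WT fructose and 10.18 on WT control, with Stab2, Flt1, Clec4g, Tek and Ehd3 below background. Past 2-fold were 1 of 12 macrophage markers in control and 2 of 13 in fructose medium, beside 0.233% and 1.28% of all detected genes. Of 11 detected endothelial markers, 0 passed in either medium. The part of these cells in the genotype difference of Rgs16 was not tested. For fructose in WT the macrophage markers had a median of 0.21 and the endothelial markers a median of -0.11. Past 2-fold were 0 of 13 and 0 of 11, where 6.11% of all detected genes passed. For fructose in KO the medians were 0.12 and -0.03. There 0 of 12 and 0 of 11 passed, beside 2.86% of all detected genes. The part of these cells in the fructose difference of Rgs16 was not tested either. Among lymphocyte markers 11 of 13 were below background on all arrays, including Cd3e, Cd4, Cd8a, Cd79a and Ms4a1.

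The window around the Rgs16 transcription start is shown because it is the stretch in which sequence matches to known promoter motifs were sought. It comes from RefSeq on GRCm38.p6 and covers 250 bases before the start and 50 from it, on the plus strand at chr1:153740103-153740402. Capitals mark matches to the GC box (GGGCGG) and to the CCAAT box (CCAAT), all of them here on the opposite strand. The window of Fgf21, a gene with a pattern near that of Rgs16 (below), lies on the minus strand at chr7:45615441-45615740 and has capitals at the E-box (CACGTG), a core that ChREBP and many other factors can recognise. A match to the carbohydrate response element (ChoRE) consensus, a pair of E-box-like parts with a spacer, is given from Pklr, the liver pyruvate kinase gene in which this element is well known, at chr3:89136453-89136469 on the plus strand, and all its bases match.
Rgs16: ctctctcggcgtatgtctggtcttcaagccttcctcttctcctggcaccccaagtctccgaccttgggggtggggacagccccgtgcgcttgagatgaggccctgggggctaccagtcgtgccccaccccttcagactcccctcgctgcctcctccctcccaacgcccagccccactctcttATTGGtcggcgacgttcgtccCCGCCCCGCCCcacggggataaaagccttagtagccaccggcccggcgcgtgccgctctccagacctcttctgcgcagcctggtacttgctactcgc
Fgf21: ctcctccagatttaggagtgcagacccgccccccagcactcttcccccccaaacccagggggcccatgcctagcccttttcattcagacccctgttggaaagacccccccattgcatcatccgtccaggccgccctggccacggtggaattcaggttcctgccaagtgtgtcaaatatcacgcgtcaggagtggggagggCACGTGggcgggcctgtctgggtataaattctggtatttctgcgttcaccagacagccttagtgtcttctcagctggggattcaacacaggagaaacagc
Pklr ChoRE: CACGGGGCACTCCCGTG

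Counting the first transcribed base as 1, with no position 0, the Rgs16 window held a CCAAT box from -68 to -64 and GC boxes from -47 to -42 and from -42 to -37, the GC boxes overlapping by 1 base. It was 66% G and C. It held no E-box, no TATA box (TATAAA) and no match to the ChoRE consensus on either strand, which says only that these letters are absent from these 300 bases. Of 32851 windows of the same length, 35.7% held a GC box, 37.4% a CCAAT box, 13.6% a TATA box, 7.15% an E-box and 0.119% the ChoRE consensus, each searched on both strands. The Fgf21 window held an E-box from -50 to -45, overlapping by 1 base a GC box from -45 to -40, and a TATA box from -28 to -23. It also held GC boxes on the opposite strand from -225 to -220 and from -121 to -116. The Pklr match spans -170 to -154. Pklr itself was lower on fructose than on control on these arrays, with log2 differences of -1.05 in KO and -0.32 in WT. Windows were matched for 8 of the 10 RGS genes (12 windows, Rgs1 and Rgs14 not among them). The E-box stood in 1 of the 12, a Rgs19 window with the match from 10 to 15. A GC box stood in 8 of the 12, a CCAAT box in 4 and a TATA box in 3. A match is a description of sequence and not a site of binding.

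Rgs1, Rgs2, Rgs3, Rgs4 and Rgs5 are the closest relatives of Rgs16 here, most of them small proteins with little beyond the RGS domain that act mainly on Gi and Gq. None of these 5 genes was above background when its probe sets were averaged. Rgs1, known for damping chemokine signalling in lymphocytes, was at 3.21 on KO fructose, 3.58 on KO control, 3.68 on WT fructose and 3.95 on WT control. Both KO arrays lay below both WT arrays, but all 4 values were below background, where the order of levels carries no measured difference. Rgs2, a regulator with a preference for Gq that lowers vascular tone, was at 3.41, 3.34, 3.53 and 3.41 on KO fructose, KO control, WT fructose and WT control. Its 2 probe sets lay between 3.96 and 4.45 and between 2.62 and 2.73, both below background on every array.

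Rgs3, which acts on Gi and Gq, varied least of the set, with 4.16 on KO fructose, 4.21 on KO control, 4.26 on WT fructose and 4.22 on WT control. Rgs4, best known from neurons and heart, was at 3.89, 3.82, 3.77 and 3.68 on KO fructose, KO control, WT fructose and WT control. Rgs3 and Rgs4 were thus below background on every array.

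Rgs5, a gene known as a marker of pericytes, had 2 probe sets that disagreed in level. The brighter one was above background on every array, at 5.57 on KO fructose, 5.15 on KO control, 5.41 on WT fructose and 5.58 on WT control. The dimmer one lay between 3.19 and 3.37, which put the average of both at 4.45, 4.24, 4.30 and 4.47 on the same arrays, below background. In the brighter probe set the fructose minus control difference was 0.42 in KO and -0.17 in WT, both well short of 2-fold. KO control was the low array, and the other arrays lay close together. Among 15 stellate cell and pericyte markers with a value, 10 were below background on all arrays, including Pdgfrb, Des, Lrat and Cspg4, and Ecm1 was at -1.20 for fructose against control in WT, the 1 marker past 2-fold.

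Rgs10, Rgs12 and Rgs14 form a further group, of which Rgs12 and Rgs14 are large proteins with added Ras-binding and alpha-subunit-binding domains. Rgs10, a short Gi-directed member known from microglia and other immune cells, was at 3.98 on KO fructose, 4.04 on KO control, 3.72 on WT fructose and 3.75 on WT control. Both KO arrays were the higher ones, again below background. Rgs12 was at 4.59, 4.80, 4.55 and 4.59 on KO fructose, KO control, WT fructose and WT control, so only KO control crossed the background of 4.76, by 0.03. Rgs14, known from hippocampal neurons, reached 4.57 on WT fructose, the closest to background of the 6 genes with no probe set above it, with 4.31 on KO fructose, 4.32 on KO control and 4.32 on WT control.

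Rgs19, first described as a partner of Gi alpha subunits, was above background on all 4 arrays, as were Rgs16 and the brighter probe set of Rgs5. It was at 5.26 on KO fructose, 5.11 on KO control, 5.32 on WT fructose and 5.23 on WT control. Its levels were alike, with a range of 0.21 over the arrays, and all 4 lay under the stricter level of 5.77. Fructose minus control was 0.15 in KO and 0.09 in WT, and KO minus WT was -0.12 in control and -0.05 in fructose medium.

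Across the 9 genes other than Rgs16, the largest difference of any size in the 4 direct comparisons was 1.39-fold, for Rgs1 in fructose medium with both arrays below background. For fructose against control their differences ran between -0.37 and 0.22 in KO and between -0.27 and 0.25 in WT. For KO against WT they ran between -0.37 and 0.29 in control medium and between -0.47 and 0.26 in fructose medium. These ranges use the average of a gene's probe sets. The brighter Rgs5 probe set lay outside them at 0.42 for fructose against control in KO and at -0.43 for KO against WT in control medium. Because 6 of the 10 genes had no probe set above background on any array and Rgs12 crossed it on 1, these values show no difference at 2-fold for genes with little or no measurable signal, whereas Rgs19 and the brighter probe set of Rgs5 were measured on every array and also stayed short of 2-fold.

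**Figure D2:**
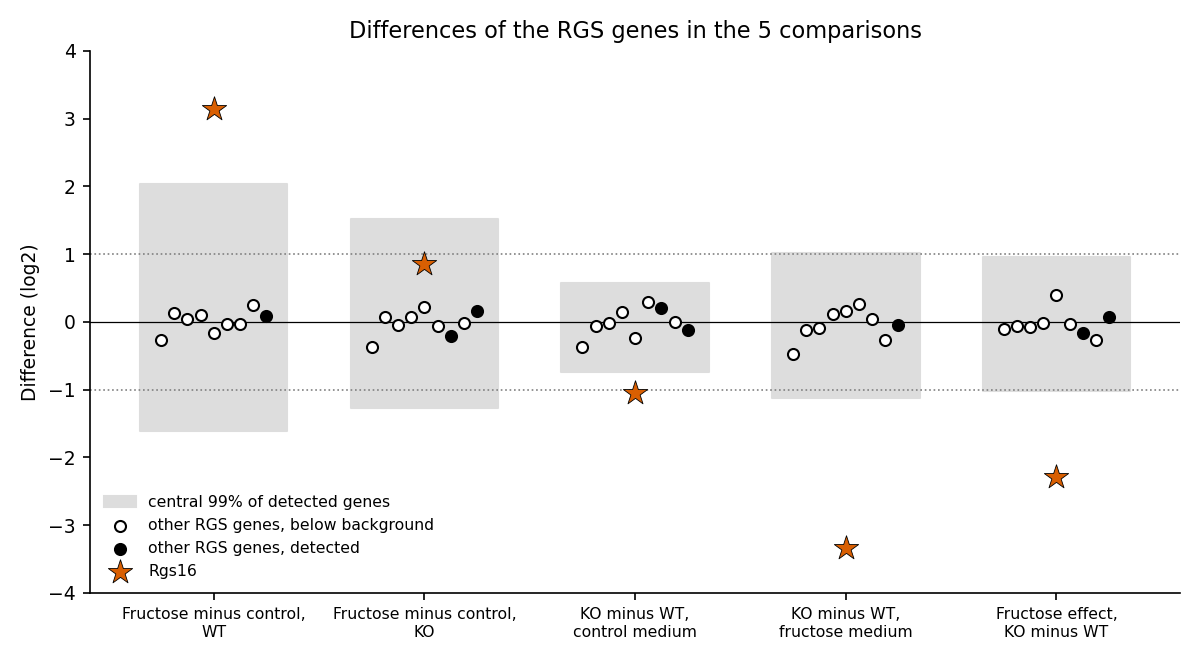
Log2 difference (y axis) of the RGS genes in the 5 comparisons (x axis), with Rgs16 as a star, detected RGS genes as filled points, those whose average was below background as open points (Rgs5 among them), and a grey band that holds the central 99% of all detected genes; dotted lines mark 2-fold. Rgs16 lies outside the band in 4 comparisons (3.14, -1.05, -3.34 and -2.29) and inside it for fructose in KO (0.85), and the other genes lie inside it throughout.

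The wider family and its partners were read from 8 lists of G-protein signalling genes, 173 genes in all, of which 152 had a value. Among 20 further genes with an RGS or related domain, 11 were detected on at least 1 array, and 0 passed 2-fold in any of the 5 comparisons. Their median difference for fructose against control was 0.15 in KO and 0.08 in WT, beside medians of 0.00 and -0.03 over all detected genes. Axin1, a scaffold of Wnt signalling with an RGS domain, had the highest of these in WT, 0.51, and Snx13 had 0.40, both chosen after their values were seen. Rgs6, Rgs7, Rgs9, Rgs13, Rgs17, Rgs18, Rgs20, Rgs21 and Rgs22 were below background on all arrays, and Rgs8 and Rgs11 reached at most 4.79 and 4.93.

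The G-protein subunits on which RGS proteins act did not pass 2-fold in any of the 5 comparisons. Of 16 alpha subunit genes, 9 were detected. Gnai2 was at 9.40 on KO fructose, 9.68 on KO control, 9.08 on WT fructose and 9.58 on WT control, and Gnaq at 7.51, 7.43, 7.32 and 7.36 on the same arrays. Gna12 came nearest to 2-fold and was chosen after its values were seen. It was at 7.98 on KO fructose, 7.998 on KO control, 8.95 on WT fructose and 8.02 on WT control, so WT fructose alone was high. It was 1.91-fold higher on fructose in WT and differed by -0.02 (log2) in KO. Gnas, the stimulatory alpha subunit, gave values of 4.68 to 4.74, just below background, on its probe set. Of 15 beta and gamma subunit genes with a value 6 were detected and 0 passed 2-fold. The same was so for 10 detected genes among 17 other regulators, and for 5 among 13 adenylyl cyclases and phospholipases C beta. Gpsm1, a guanine dissociation inhibitor of Gi alpha subunits, was at 5.04 on KO fructose, 4.73 on KO control, 5.48 on WT fructose and 4.60 on WT control. Both control arrays of Gpsm1 lay below background.

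Among receptors, 3 genes passed 2-fold in at least 1 comparison. Hcar2, the Gi-coupled receptor for niacin and the ketone body hydroxybutyrate, was at 7.49 on KO fructose, 6.52 on KO control, 8.35 on WT fructose and 7.01 on WT control. Fructose arrays were the higher ones in both genotypes, by 1.96-fold in KO and 2.53-fold in WT, and Hcar2 was the 1 of 6 detected Gi-coupled receptors past 2-fold in WT. Avpr1a, the Gq-coupled vasopressin receptor of hepatocytes, was at 8.27 on KO fructose, 6.84 on KO control, 6.54 on WT fructose and 6.47 on WT control. It was 2.70-fold higher on fructose in KO against 1.05-fold in WT, and 3.32-fold higher in KO than in WT in fructose medium. KO fructose was thus the high array for Avpr1a and WT fructose the high array for Rgs16. Agtr1a, the Gq-coupled angiotensin receptor, was at 5.78 on KO fructose, 7.14 on KO control, 5.78 on WT fructose and 6.65 on WT control, which was 2.56-fold lower on fructose in KO and 1.83-fold lower in WT.

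P2ry2, a Gq-coupled nucleotide receptor chosen after its values were seen, was 1.76-fold higher on fructose in KO and 1.78-fold in WT. Of 3 detected Gs-coupled receptors, 0 passed 2-fold, and Gcgr, the glucagon receptor, had fructose differences of 0.24 in KO and 0.60 in WT. Over all 8 lists, 2 of 58 detected genes passed 2-fold for fructose in KO and 1 of 57 in WT. For KO against WT, 0 of 53 passed in control medium and 1 of 58 in fructose medium. These counts make 3.45%, 1.75%, 0% and 1.72% of the detected list genes, beside 2.86%, 6.11%, 0.233% and 1.28% of all detected genes in the same comparisons.

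**Figure D3:**
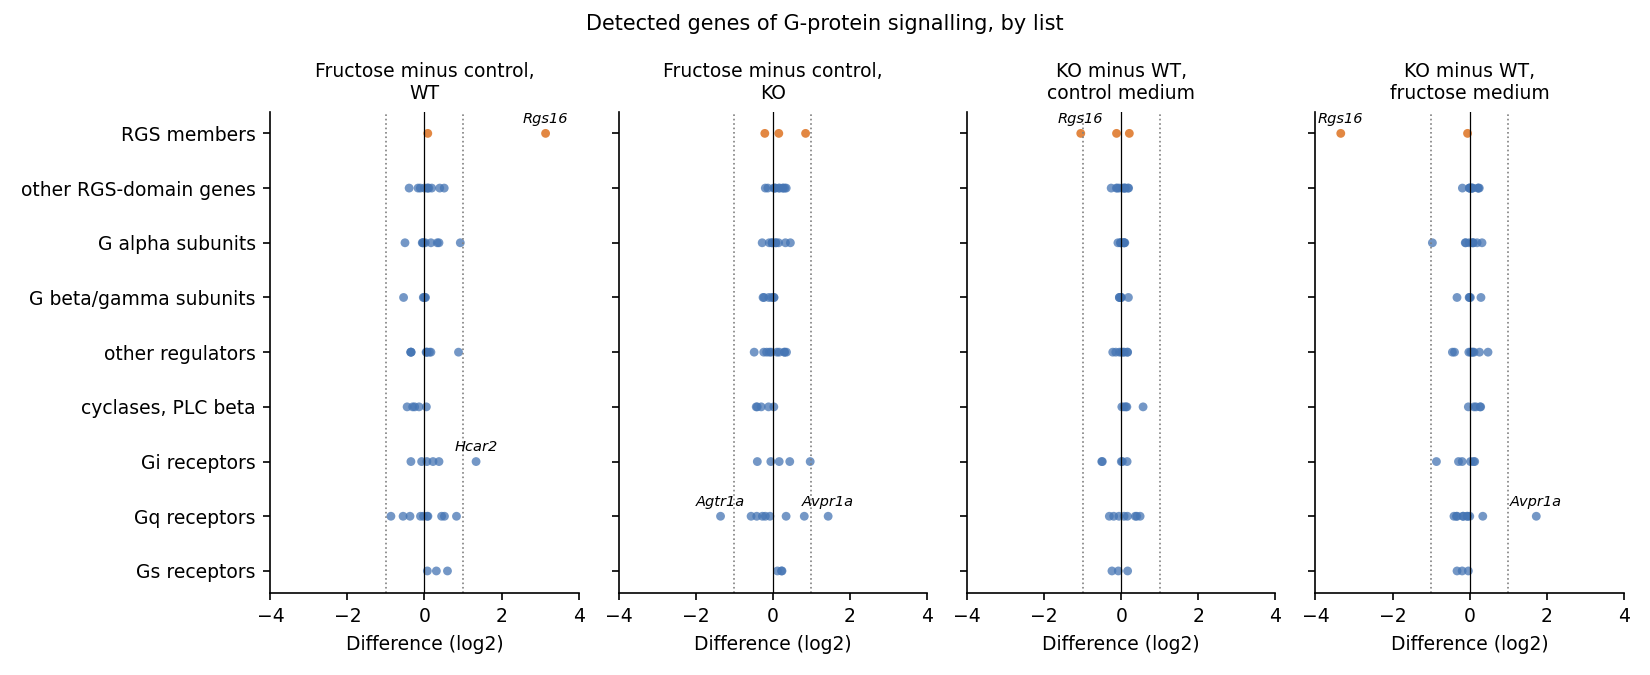
Log2 difference (x axis) of each detected gene of the RGS set and of the 8 G-protein signalling lists (rows) in the 4 direct comparisons (panels), with dotted lines at 2-fold and genes past 2-fold named. Rgs16 (3.14, -1.05 and -3.34) stands apart from the other points, and beside it Hcar2, Avpr1a and Agtr1a pass a line.

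Genes whose levels over the 4 arrays were most like those of Rgs16 were sought among 10071 detected protein-coding genes left after a filter on symbols. Likeness was the root mean square distance between log2 values, each gene being centred on its own mean. This measure uses the same arrays and differences for which Rgs16 was chosen, and is a description over 4 arrays only. Klf10, a zinc-finger transcription factor, was nearest at a distance of 0.13. It was at 5.99 on KO fructose, 5.37 on KO control, 9.39 on WT fructose and 6.06 on WT control, so its order of arrays was that of Rgs16. Then came Prss8, the membrane serine protease prostasin (0.24), G6pc, which encodes the glucose-6-phosphatase catalytic subunit (0.32), and Txnip, the thioredoxin-interacting protein (0.34). They were followed by Angptl8, a secreted inhibitor of lipoprotein lipase (0.46), Fgf21, a liver-secreted hormone (0.47), and Slc25a47, a mitochondrial carrier (0.50). Ifi30, a lysosomal thiol reductase (0.57), Arrdc4, an alpha-arrestin (0.62), and Pdhb, a subunit of pyruvate dehydrogenase (0.65), completed the 10, and the median distance of all candidates was 1.60.

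Of these 10 genes, 6 are in a list of 28 known ChREBP targets, a list written with results of these data known. Of that list 25 genes were detected, and the search for likeness had 10071 candidates. All 10 had their highest level on WT fructose, and 9 had their lowest on KO control as Rgs16 did. The exception was Fgf21, with 4.96 on KO control and 4.95 on WT control. The 10 genes were picked for closeness to Rgs16 on these arrays, so a shared high or low array follows largely from that choice. Both KO values of G6pc (4.59 and 4.48) lay under the background. In KO cells Slc25a47 was 3.31-fold and Txnip 2.40-fold higher on fructose, whereas Rgs16 was 1.80-fold, Prss8 1.74-fold and Klf10 1.54-fold higher. In control medium KO minus WT was -1.05 for Rgs16, -0.69 for Klf10, -0.56 for Txnip, -0.52 for Prss8 and 0.01 for Fgf21. Over 25 detected ChREBP targets, KO minus WT had a median of -0.21 in control medium and the lowest value was -0.69, so the Rgs16 difference of -1.05 was below that of every detected gene in the list. Promoter windows were matched for 8 of the 10 nearest genes. The E-box stood in 3 of these 8 (Arrdc4, Fgf21 and Ifi30), beside 7.15% of all windows, and the ChoRE consensus in 0 of 8. The GC box stood in 4 of the 8, the CCAAT box in 5 and the TATA box in 2. Their shares over all windows were 35.7%, 37.4% and 13.6%. The nearest RGS gene to Rgs16 by this distance was Rgs14 at 1.48.

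**Figure D4:**
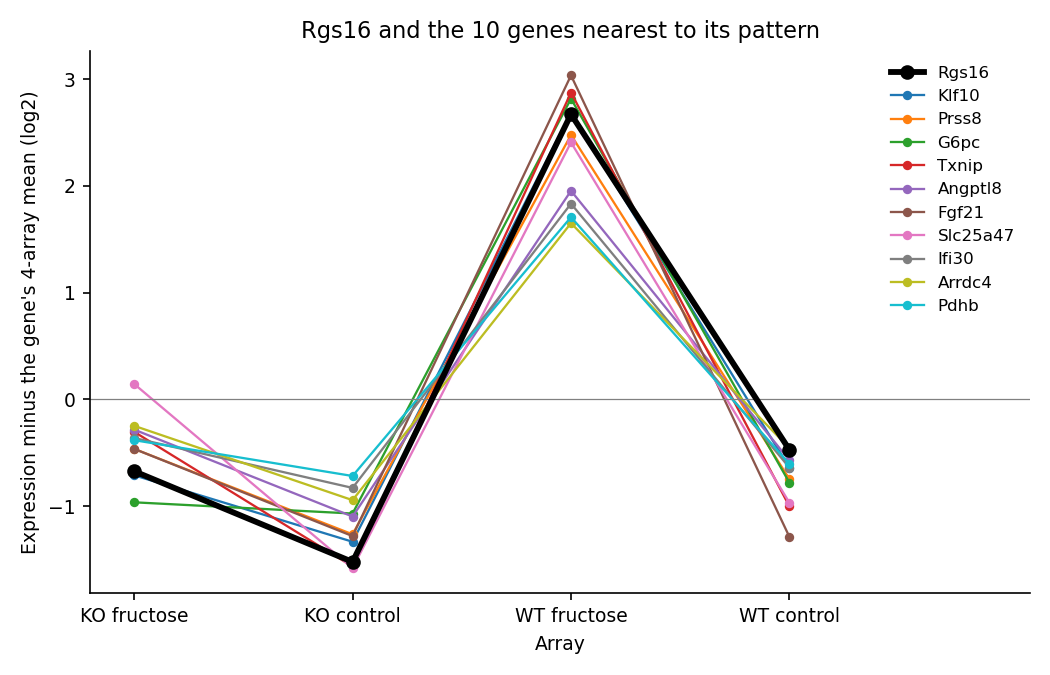
Log2 expression minus each gene's own 4-array mean (y axis) for KO fructose, KO control, WT fructose and WT control (x axis), with Rgs16 as the thick black line and the 10 genes nearest to it in colour; lines join the arrays of a gene and show no course in time. All 11 genes are highest on WT fructose, and all but Fgf21 are lowest on KO control. The 10 genes were picked for this likeness, so their shared shape follows largely from the choice.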

How the data were processed

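Values were the authors' deposited log2 expression per probe set, from 1-colour whole-transcript arrays hybridised with biotin-labelled material, 1 array for each of 4 groups. Per the submitters' processing notes, RMA and R 3.4.0 were used. RMA makes the arrays' distributions alike, so a shift shared by all genes cannot be seen. Annotation version and genome build: not given in the sources used here.

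Of 41345 probe sets, 23521 had 1 gene symbol in the platform annotation, and 23328 of these were matched by Entrez number to RefSeq names (GRCm38.p6). Probe sets with several symbols (1814) or none (16010) were left out. Probe sets of a gene were averaged in log2, which gave 22180 genes. Differences were taken between arrays for 5 comparisons with no test, and genes were counted at 2-fold. The array number limits the precision of every value.

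The RGS genes and all lists were chosen with earlier results of these data known. All 10 RGS genes are named. Of 15 further lists with 290 entries, among them ChREBP targets and markers of hepatocytes, macrophages, endothelial cells, stellate cells and pericytes, lymphocytes and cholangiocytes, up to 4 genes past 2-fold are named per comparison, and other genes where stated. The likeness rule took the 10 nearest genes. It left out genes listed as other than protein-coding and symbols that begin with Gm, Olfr, Vmn, Mir, Snor or LOC or end in Rik. These letters were meant to mark predicted genes, small RNAs and chemosensory receptors, and can also drop established genes. Alternatives were median centring, repeated quantile normalization, loess (span 0.3), the brightest probe set, values raised to background, thresholds of 1.5-fold and 3-fold, no or a stricter dim filter (background plus 1 log2 unit), and backgrounds at the 90th and 99th percentile. Computation used Python 3.11.15 with pandas 2.3.3, and the steps were tested on simulated data.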

Additional observations from a re-analysis of the deposited data

Results flagged for a closer look

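Cldn4, the claudin-4 gene and a marker in the cholangiocyte list, had fructose effects of opposite direction in the genotypes, a log2 difference of 0.79 in KO and -0.87 in WT, which differ by 1.66 (KO minus WT). The difference was not tested, since each effect rests on 1 pair of arrays. Cldn4 was 3.91-fold higher in KO than in WT in fructose medium, while Sox9, the other detected gene of the list, differed by -0.09 there and Krt19, Krt7 and Epcam were below background on all arrays. Rgs5 was likewise of opposite direction in its brighter probe set, which was above background on all 4 arrays, with 0.42 in KO and -0.17 in WT, a difference of 0.59 that was also not tested.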

How the results depend on the processing

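The 5 Rgs16 differences kept their direction and their side of 2-fold under median centring, repeated quantile normalization and loess. The largest move was 0.05 (log2) over 25 values, which include the brightest probe set and values raised to background. Those 2 alternatives could not move Rgs16, which has 1 probe set and lay above background on all 4 arrays. Fructose against control lay between 0.85 and 0.86 in KO and between 3.14 and 3.16 in WT, KO against WT between -1.05 and -1.004 in control medium and between -3.36 and -3.30 in fructose medium, and the difference of effects between -2.33 and -2.28. The number of RGS genes past the threshold stayed the same in 53 of 55 settings. It was 1 in place of 0 at 1.5-fold for fructose in KO, and 0 in place of 1 at 3-fold for KO against WT in control medium, Rgs16 in both cases by the construction of the threshold. The control-medium difference of Rgs16 sits at the edge of 2-fold and came to -1.004 under repeated quantile normalization. No paired analysis was possible because each group has 1 array and the labels give no replicate numbers, and no array could be left out. Signal over background limits 7 of the 10 RGS genes, which had no probe set above background on every array, and Rgs5 was measured by 1 of its 2 probe sets.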
